A study of Caenorhabditis elegans with 19 samples.

Results

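The X chromosome of Caenorhabditis elegans was followed in 50 kb windows, from its left end to its right end, in larvae that differ in 2 X-linked sex-determination genes. A member was an X gene whose mean level was at least 1 FPKM over the 12 L3 samples, and it belonged to the window that held its midpoint. FPKM is a level already divided by transcript length and by library size. Of the 2893 X genes in the tables, 2063 were members, and 2025 of these code for protein. They filled all 355 windows of X, with 1 to 15 members each and a median of 6. The 327 windows with at least 3 members held 2014 members and were tested. The other 28 windows held 49 members, which entered only the tests of single genes. The members nearest the limit from inside were F47E1.20, gcy-31 and unc-2 at 1.002, 1.005 and 1.006 FPKM, and the X genes nearest it from outside were C36B7.1, C02B8.1 and H40L08.3 at 0.988, 0.996 and 0.999 FPKM. On the autosomes, 11427 genes and 1494 windows passed the same limits.

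Whole populations of worms were used, and poly(A) RNA was sequenced with a directional kit. At the L3 larval stage, reached by feeding for 24 h, 4 samples were taken from each of 3 strains, namely N2 Bristol as wild type, WM458 carrying xol-1 (ne4472), and EKM198 carrying both xol-1 (ne4472) and sex-1 (gk829). The last of these, called the double mutant below, was also sampled as L1 larvae after 3 h of feeding (n = 4) and as early embryos from bleached young adults (n = 3). The strain with xol-1 (ne4472) alone is called the single mutant. Each mutant genotype was a single strain, so a difference between genotypes cannot be told apart from a difference between strains. The labels do not say that replicates came from separate cultures, so p-values measure only the spread between these samples. Genotypes were compared at L3 alone. Wild type and xol-1 at the early embryo and L1 stages belong to another series, so genotype differences along X at those stages were not analysed here.

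Worms with a pair of X chromosomes develop as hermaphrodites and worms with a single X as males. X-linked signal elements, among them the nuclear receptor gene sex-1, act together to repress xol-1, the switch gene that directs male development and turns dosage compensation off. Where xol-1 is repressed, SDC-2 brings the dosage compensation complex to X, and the complex lowers transcription along both X chromosomes. It loads at recruitment sites and spreads from them, so neighbouring genes could in principle respond alike or each in its own way.

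The smallest steps in low values put relative depth at 20.4 to 33.9 fragments for each FPKM and kb of transcript at L3, 14.1 to 20.4 at L1 and 28.2 to 35.5 in early embryos. The labelled mutations could be checked only in part. xol-1 (X:8041313-8044409) was listed at 0 in all 4 single-mutant libraries but also in 3 of 4 wild-type libraries at L3. In the double mutant it was not at 0 in every L3 library. Its level at L3 therefore checks no genotype, and it was no member. sex-1 transcripts were still present in the double mutant. Marker genes of several tissues moved with genotype, and their counts are to be read against all genes tested, of which 24.4% passed as higher and 24.3% as lower between the double and the single mutant, 26% and 27.1% between the double mutant and wild type, and 15.4% each way between the single mutant and wild type. The summed level of the 3 muscle markers ranged from 1118 to 1342 FPKM in the double mutant, from 595 to 885 in the single mutant and from 709 to 820 in wild type, and all 3 passed the test as higher in the double mutant in both of its comparisons. The 15 germline markers summed to 79.3 to 88.9, 50.4 to 62.4 and 58.2 to 64.6 FPKM in the same order, with 8 of 15 over the limit and 5 of these higher and 0 lower in the double mutant in both of its comparisons. The 5 intestinal markers summed to 1069 to 1263, 794 to 1040 and 656 to 763 FPKM, and the 3 tested were higher in the double mutant in both comparisons. The 7 molting markers summed to 141 to 181, 98.3 to 151 and 182 to 263 FPKM, and 3 of the 5 tested were lower in the single mutant than in wild type. Of the same 5, 2 were higher and 0 lower in the double than in the single mutant. Between the double mutant and wild type 1 was lower and 0 were higher. The 4 neuron markers summed to 544 to 604, 453 to 554 and 493 to 538 FPKM, with 1 higher and 2 lower between the mutants. The 5 male markers summed to 6.30 to 8.34, 7.14 to 8.58 and 4.59 to 7.70 FPKM, and of the 2 tested 1 was higher in each mutant than in wild type. The 7 sperm markers were between 0.839 and 3.55 FPKM in sum over all L3 samples, with 2 at 0 in every one. The part of these differences in the results along X was not tested, and in whole animals fewer cells of a type and less RNA per cell cannot be told apart.

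The value of a window was the median over its members of log2(FPKM + 1), each gene centred on its own mean over the 12 L3 samples, minus the median of all autosomal members in the same sample. A window of 0 therefore moved with the autosomes. Windows were tested with limma over all 1821 windows of the genome, two-sided, with Benjamini-Hochberg adjustment and a threshold of 0.05, and genes in the same way over 13490 genes. The comparison between the double and the single mutant sets a strain with both mutations against a strain with the xol-1 mutation. The comparison between the single mutant and wild type sets the strain with the xol-1 mutation against N2. The last sets the strain with both mutations against N2. Each comparison holds any other difference between the strains as well. The 3 comparisons share samples in pairs, so their values are set side by side below and are not independent.

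Between the double and the single mutant, windows of X moved both ways in almost equal number. Of 327 windows, 65 had a higher and 70 a lower value in the double mutant, together 41.3% of X windows (limma, adjusted p under 0.05). The background was 40.8% of autosomal windows and 40.9% of all windows, close to the share on X. Higher windows made up 19.9% on X and 23.2% on autosomes, and lower windows 21.4% and 17.6%. The median window difference on X was -0.010 on the log2 scale with an SD of 0.21 between windows, against 0.0069 with an SD of 0.23 on autosomes. With the mean over genes in place of the median as the window value, 93 windows were higher and 63 lower. The autosomal shares were not taken with the mean, so whether this change is particular to X is not known. Counted by gene, 499 members were higher (24.2%, against 24.4% of all genes) and 494 lower (23.9%, against 24.3%), in all 48.1% of X members against 48.8% of all genes.

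Between the single mutant and wild type, the windows of X leaned to lower values in the single mutant. There were 16 higher and 62 lower windows, together 23.9% of X windows against 20.7% of autosomal windows and 21.3% of all windows. Lower windows made up 19% on X against 10.2% on autosomes, and higher windows 4.89% against 10.4%. The median window difference on X was -0.049, and 63.9% of X windows had a negative difference, against 49.9% on autosomes. By gene, 267 members were higher (12.9%, against 15.4% of all genes) and 389 lower (18.9%, against 15.4%), in all 31.8% of members against 30.8% of all genes. Between the double mutant and wild type the same lean was seen, with 46 higher and 100 lower windows, 44.6% of X windows against 49.3% of autosomal windows and 48.4% of all windows. Lower windows made up 30.6% on X and 22.2% on autosomes, higher windows 14.1% and 27.1%, and the median window difference on X was -0.070. With the mean over genes as the window value, that comparison had 76 higher and 88 lower windows. The comparison between the single mutant and wild type then had 23 higher and 64 lower. For these counts too, no autosomal share was taken. By gene, 450 members were higher (21.8%, against 26% of all genes) and 634 lower (30.7%, against 27.1%), in all 52.5% of members against 53.1% of all genes. Whether the X and autosomal shares differ was not tested. Chromosome IV had a share of lower windows near that of X in the last comparison, at 29.7%. Its share of higher windows was 20.3%, above the 14.1% of X.

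**Figure D1:**
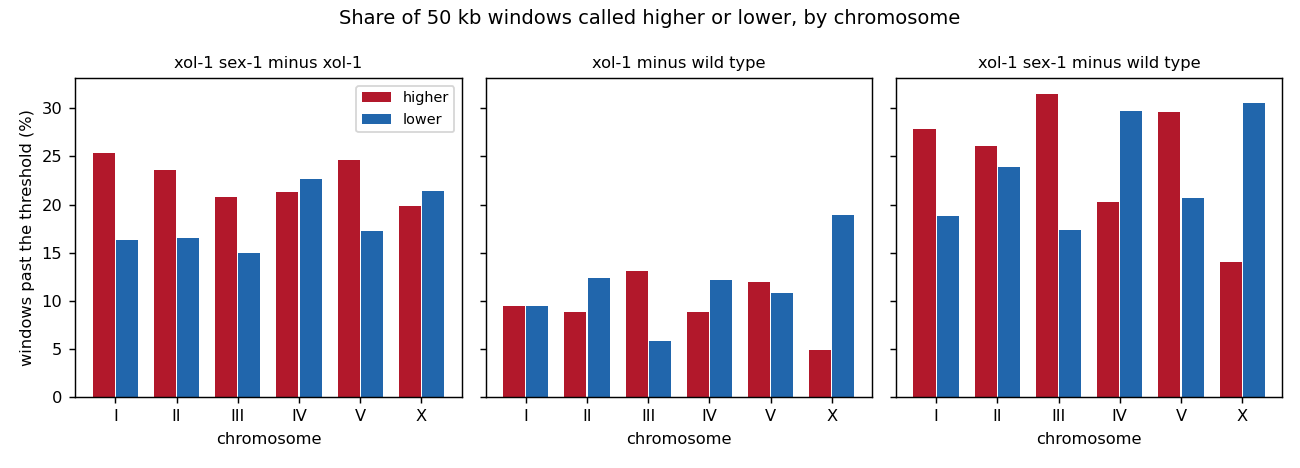
Share of tested 50 kb windows past the threshold in each L3 comparison, by chromosome (horizontal axis), as a percentage of that chromosome's windows (vertical axis, starting at 0). Red bars are windows higher and blue bars windows lower in the genotype named first. On X, 4.89% of windows were higher and 19% lower in the single mutant than in wild type, whereas chromosomes I to V ranged from 8.78% to 13.1% higher.

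Split by level of expression, a division chosen after the values were seen, members over 20 FPKM had the most negative medians in both comparisons with wild type. For the 939 members over 20 FPKM, the median difference between the single mutant and wild type was -0.056, against 0.014 for 5943 autosomal genes over 20 FPKM. For the 639 members between 5 and 20 FPKM it was -0.053, close to that over 20 FPKM, against -0.030 on autosomes. For the 485 members between 1 and 5 FPKM it was -0.033, against -0.012 on autosomes. Between the double mutant and wild type the members over 20 FPKM had a median of -0.15, against -0.060 on autosomes. Those between 5 and 20 FPKM had -0.052, against 0.013, and those between 1 and 5 FPKM had 0.046, against 0.10. In each of these tiers the X median lay below the autosomal one.

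In megabase blocks counted from the left end, the medians of single mutant minus wild type were negative in all 18 blocks, from -0.13 in block 13 to -0.014 in block 7. For double mutant minus wild type they were negative in 16 of 18 blocks, and the 2 exceptions were block 5 at 0.053 and block 16 at 0.11. For double minus single mutant they were negative in 11 blocks and positive in 7, from -0.11 in block 7 to 0.15 in block 16. Block 16 had 8 higher and 2 lower windows of 18 in that comparison, and block 12 had 0 higher and 7 lower of 19. Lower windows were present in all 18 blocks in each of the 3 comparisons.

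Adjacent windows were weakly related to each other. Over 301 pairs of neighbouring X windows, the correlation of their differences was -0.11 for double minus single mutant, 0.011 for single mutant minus wild type and -0.066 for double mutant minus wild type. Over 1368 autosomal pairs the same values were 0.17, 0.084 and 0.19. These are descriptions across windows of the same libraries. Each gene counts only in the window of its midpoint, and the part of gene families in the correlations was not tested. Within windows, too, genes went different ways. Members passing the test in both directions were present in 179 of 327 X windows (54.7%) between the double and the single mutant, in 116 (35.5%) between the single mutant and wild type and in 181 (55.4%) between the double mutant and wild type, against 62.3%, 39.8% and 65.9% of autosomal windows.

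**Figure D2:**
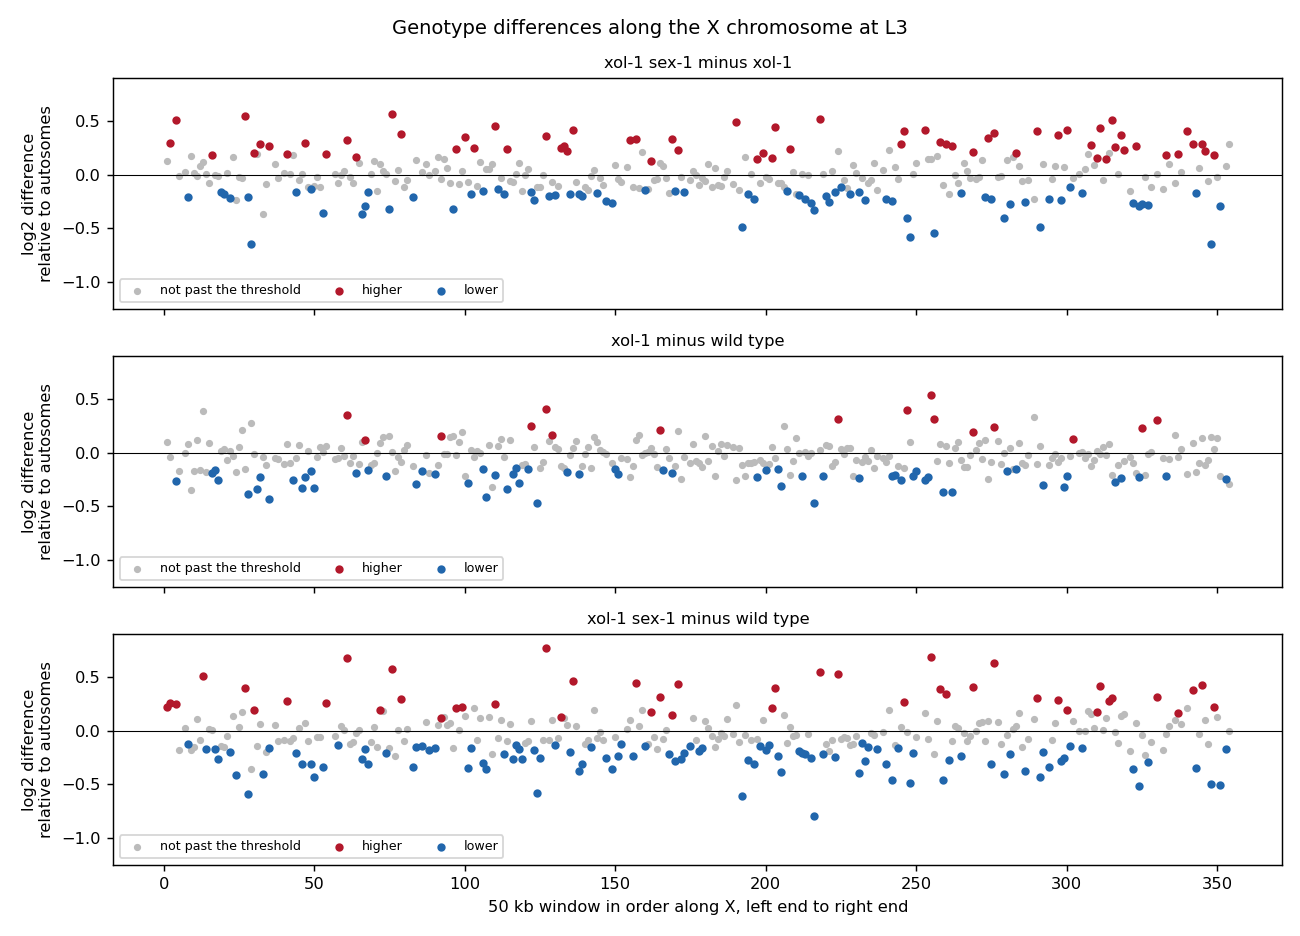
Difference of each tested X window in the 3 L3 comparisons (vertical axes, log2, relative to the autosomal median), with windows in order along X from left end to right end (horizontal axis). Red and blue points passed the threshold as higher and lower, grey points did not. Both colours lie along the whole length in the top panel (65 higher, 70 lower), and blue outnumbers red in the middle panel (62 to 16).

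A few short runs of 3 or more neighbouring windows passed in the same direction, and these were picked out after the values were seen. Runs were counted on X alone, so no autosomal count stands beside them. Whether their number exceeds what the share of passing windows alone would give was not tested. Between the double and the single mutant, the 3 windows of X:3250001-3400000 were lower and the 3 of X:6550001-6700000 were higher. Between the single mutant and wild type, X:750001-900000 and X:5750001-5900000 were lower. Between the double mutant and wild type, 5 runs were lower, with 3 windows at X:3250001-3400000, X:6100001-6250000 and X:10500001-10650000, and 4 at X:5750001-5950000 and X:11500001-11700000.

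The run at X:3250001-3400000 holds the tandem genes lbp-1, lbp-2 and lbp-3, which encode fatty-acid binding proteins. lbp-2 (X:3260610-3261470) had 51.3, 57.6, 52.2 and 49.0 FPKM in the double mutant, 86.9, 89.0, 99.1 and 88.5 in the single mutant, and 91.5, 87.5, 95.2 and 91.4 in wild type. The double mutant lay below both other genotypes without overlap, with a log2 difference of -0.76 (SE 0.060, limma adjusted p = 1.54e-06) from the single mutant. lbp-1 and lbp-3 were also lower than in the single mutant, by -0.54 (SE 0.071, adjusted p = 6.37e-05) and -0.36 (SE 0.10, adjusted p = 0.0135). The run was not uniform. At its right border, cht-1 (X:3397613-3400017), a chitinase gene that overlaps a gene on the other strand, had 13.8, 13.8, 14.1 and 15.2 FPKM in the double mutant against 4.58, 4.93, 2.86 and 4.10 in the single mutant, a log2 difference of 1.61 (SE 0.145, adjusted p = 3.96e-06). Fragments shared between the lbp genes could not be told apart here.

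The run at X:5750001-5900000 was lower in both comparisons with wild type. It holds hbl-1 (X:5822142-5827755), the hunchback-like regulator of developmental timing, and hog-1 (X:5851953-5854263), which encodes a Hedgehog-related protein and overlaps a gene on the other strand. hog-1 had 98.8, 77.8, 88.6 and 88.4 FPKM in wild type, 52.2, 53.9, 55.3 and 48.9 in the single mutant, and 51.8, 58.0, 55.3 and 51.7 in the double mutant. Both mutants lay below wild type without overlap, by -0.74 (SE 0.073, limma adjusted p = 1.85e-05) and -0.68 (SE 0.073, adjusted p = 1.00e-05), while the mutants overlapped each other. hbl-1 was lower by -0.32 (SE 0.082, adjusted p = 0.0108) in the single mutant and by -0.30 (SE 0.082, adjusted p = 0.00839) in the double mutant.

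X was also divided into 3 parts of equal length. The left part ended at X:5906242 and the middle at X:11812484, and they held 676, 790 and 597 members from left to right. Between the double and the single mutant, there were 19 higher and 19 lower windows on the left, 17 and 28 in the middle, and 29 and 23 on the right. Between the single mutant and wild type the counts were 3 and 27 (2.75% and 24.8%), 5 and 16 (4.42% and 14.2%), and 8 and 19 (7.62% and 18.1%). The autosomal shares there were 10.4% and 10.2%. Between the double mutant and wild type the counts were 16 and 32 (14.7% and 29.4%), 12 and 41 (10.6% and 36.3%), and 18 and 27 (17.1% and 25.7%). The autosomal shares there were 27.1% and 22.2%. In the middle part, the median over members in the 4 double-mutant samples was -0.0288, -0.0434, -0.0407 and -0.0435, in the single mutant it was -0.0037, 0.013, 0.017 and -0.0294, and in wild type 0.057, 0.040, 0.046 and 0.049. With the exception of replicate 1, the double-mutant samples lay below all single-mutant samples there, and all wild-type samples lay above both mutants. In the right part, by contrast, the double-mutant samples spanned -0.024 to 0.029 and those of the single mutant -0.061 to 0.0087, so the mutants overlapped.

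The median over members of the middle part minus the median over those of both ends, pooled, gave 1 value per sample. It was 0.0074 ± 0.017 in wild type, 0.026 ± 0.040 in the single mutant and -0.033 ± 0.012 in the double mutant (SD, n = 4 each). By an exact two-sided permutation test, the double mutant was lower than the single mutant by -0.059 (SE 0.021, p = 0.0286, adjusted over 3 tests p = 0.0429) and lower than wild type by -0.040 (SE 0.010, p = 0.0286, adjusted p = 0.0429). The 4 double-mutant samples lay below all 4 samples of the other group in both. The difference of the single mutant from wild type was 0.019 (SE 0.021, exact permutation p = 0.514). With 4 samples against 4 the smallest p is 0.0286, so each call needs complete separation of the groups in both comparisons. Leaving out a sample puts 3 against 4 in a pair of the comparisons, where the smallest p is 0.0571, so no call could pass then. Single-mutant replicate 3 stood apart, at 0.085 against -1.1e-05 to 0.014 in the other 3, and without it the difference between the double and the single mutant was -0.035. Both calls were lost when genes overlapping another gene were left out (-0.043 and -0.027, exact permutation adjusted p = 0.0857 for both).

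**Figure D3:**
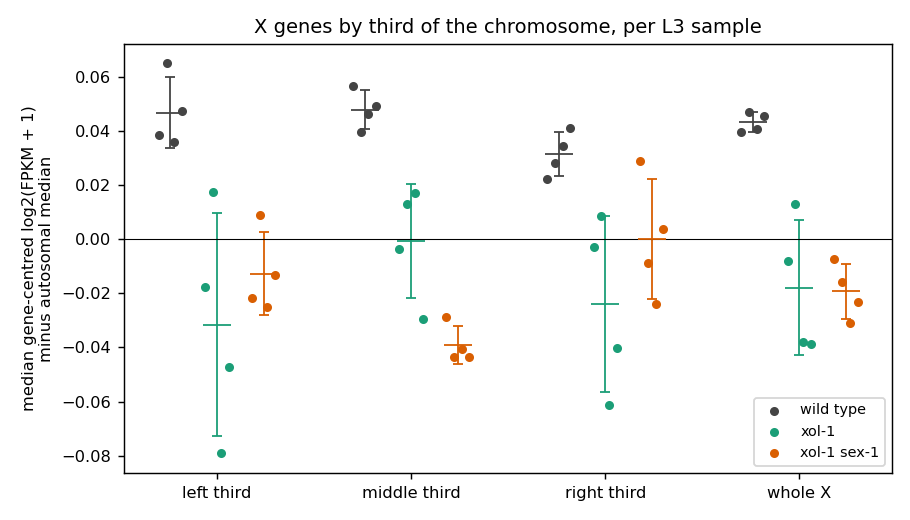
Median over X members, by part of the chromosome and for the whole X (horizontal axis), of gene-centred log2(FPKM + 1) minus the autosomal median (vertical axis). Points are the 4 L3 samples of each genotype, horizontal marks the means and bars 1 SD. In the middle part the wild-type samples lie between 0.040 and 0.057 and the double-mutant samples between -0.043 and -0.029.

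The window that holds sex-1, X:10200001-10250000, had 7 members. Its window value was 0.29, 0.23, 0.20 and 0.17 in wild type, -0.036, -0.050, -0.19 and -0.083 in the single mutant, and -0.27, -0.063, -0.15 and -0.18 in the double mutant. Wild type lay above both mutants in every sample, and the mutants overlapped. The window was lower than wild type by -0.31 (SE 0.051, limma adjusted p = 0.00133) in the single mutant and by -0.39 (SE 0.051, adjusted p = 7.43e-05) in the double mutant, and differed by -0.076 (SE 0.051, adjusted p = 0.248) between the mutants. Between the single mutant and wild type 6 of the 7 members were lower, in a comparison where 31.8% of X members passed in either direction. The seventh was sex-1 itself.

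sex-1 (X:10201329-10205421, minus strand) encodes a nuclear hormone receptor. It had 4.90, 5.59, 4.05 and 4.16 FPKM in wild type, 5.71, 4.995, 3.79 and 5.53 in the single mutant, and 3.47, 4.16, 3.36 and 4.06 in the double mutant. The 3 genotypes overlapped, and the log2 difference was -0.30 (SE 0.13, limma adjusted p = 0.0660) between the double and the single mutant and 0.070 (SE 0.13, adjusted p = 0.720) between the single mutant and wild type. Whether the gk829 allele leaves these transcripts functional is not given by these values. Its neighbour C14H10.2 (X:10242325-10252881) had 76.8, 63.9, 69.2 and 64.05 FPKM in wild type, 44.8, 40.7, 37.1 and 35.2 in the single mutant, and 38.9, 49.8, 43.4 and 42.4 in the double mutant. It was lower than wild type in both mutants, by -0.79 (SE 0.093, adjusted p = 5.46e-05) and -0.63 (SE 0.093, adjusted p = 0.000120).

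F44A6.4 (X:10214443-10215495) fell in 2 steps, with 140, 134, 140 and 142 FPKM in wild type, 119, 113, 128 and 128 in the single mutant and 93.9, 87.2, 95.5 and 91.1 in the double mutant, without overlap between any of the genotypes. zipt-13 (X:10233739-10236944), a gene of the ZIP zinc transporter family, had means of 147 ± 11.6, 124 ± 4.85 and 105 ± 5.92 FPKM (SD, n = 4) in the same order. C14H10.3 (X:10220641-10228137) went down and partly back, with means of 75.3 ± 3.84, 60.5 ± 7.88 and 68.9 ± 3.75 FPKM, and was higher in the double mutant than in the single mutant by 0.21 (SE 0.083, limma adjusted p = 0.0486). Of the neighbouring windows, X:10150001-10200000 was lower in the single mutant than in wild type by -0.15 (SE 0.037, adjusted p = 0.0106), and X:10250001-10300000 had a difference of 0.25 (SE 0.088, adjusted p = 0.0566) that did not pass.

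**Figure D4:**
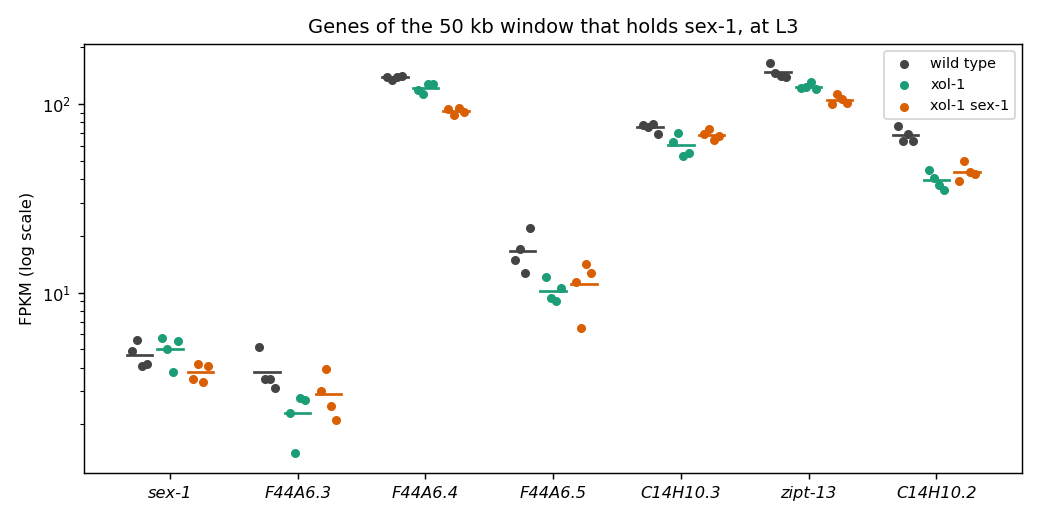
FPKM (vertical axis, log scale) of the 7 member genes of the window that holds sex-1, in order along X (horizontal axis). Points are the 4 L3 samples of each genotype and lines their means. The wild-type points of C14H10.2 lie between 63.9 and 76.8 FPKM, above all points of both mutants, while the 3 genotypes overlap for sex-1.

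The window that holds xol-1, X:8000001-8050000, passed in no comparison, although xol-1 is mutated in both mutant strains. Its difference was -0.13 (adjusted p = 0.0718) between the double and the single mutant, 0.0076 (adjusted p = 0.934) between the single mutant and wild type and -0.12 (adjusted p = 0.0794) between the double mutant and wild type (limma). Single members did move. C18A11.4 (X:8045518-8047552) had 2.10, 1.72, 1.38 and 1.85 FPKM in wild type, 5.03, 3.83, 8.09 and 6.59 in the single mutant, and 1.75, 3.70, 3.86 and 2.13 in the double mutant. All single-mutant samples lay above wild type, with a log2 difference of 1.28 (SE 0.22, limma adjusted p = 0.000729), and the double mutant was lower than the single mutant by -0.82 (SE 0.22, adjusted p = 0.00790), with 1 single-mutant sample among the double-mutant values.

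Of the 6 X-linked genes listed for sex determination (sex-1, fox-1, ceh-39, sex-2, sdc-2 and xol-1), the 3 that passed the level limit were sex-1, ceh-39 and sdc-2. ceh-39 (X:1853874-1856172), a homeodomain gene, had 6.40, 7.17, 6.21 and 6.77 FPKM in wild type, 5.22, 6.40, 3.79 and 5.28 in the single mutant, and 6.42, 6.83, 6.09 and 6.70 in the double mutant. It was lower in the single mutant than in wild type by -0.33 (SE 0.12, limma adjusted p = 0.0467) and higher in the double mutant than in the single mutant by 0.32 (SE 0.12, adjusted p = 0.0364), in both cases with overlapping samples. sdc-2 (X:11522707-11533450), whose product recruits the dosage compensation complex to X, had 11.04, 10.4, 10.5 and 10.7 FPKM in the double mutant and 9.69, 10.3, 8.81 and 9.16 in the single mutant, a log2 difference of 0.18 (SE 0.068, adjusted p = 0.0463) without overlap. sdc-1 (X:16275763-16282534), another gene of the complex, stayed between 0.970 and 2.21 FPKM in all 12 samples and passed in no comparison. fox-1, an RNA-binding signal element, was listed at 0 in all 12 L3 samples and was no member, and sex-2 was not matched by symbol. Of the 10 listed genes of the dosage compensation complex, 8 are autosomal. All 10 passed the level limit, and between the mutants 6 passed as higher and 0 as lower in the double one, against 24.4% and 24.3% of all genes, with a median of 0.26 against 0.0040 over all genes. The largest difference was that of dpy-28, a condensin subunit, at 0.65 (SE 0.078, limma adjusted p = 3.40e-05). The 6 listed chromatin genes, set-1, set-4, met-2, set-25, cec-4 and jmjd-5, all passed the limit, with 2 higher and 1 lower in the double mutant than in the single mutant, a share near the 48.8% of all genes that passed in either direction.

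Of the listed markers of other tissues, 2 on X were members. elt-2 (X:10481240-10483441), the GATA factor that defines the intestine, had 45.8, 49.3, 43.3 and 43.0 FPKM in the double mutant, 35.4, 43.3, 39.5 and 40.1 in the single mutant, and 32.0, 34.3, 34.9 and 37.5 in wild type. Its level was above wild type in the double mutant by 0.39 (SE 0.070, limma adjusted p = 0.000508), without overlap. nas-37 (X:9944844-9949063), a protease gene used in molting that overlaps a gene on the other strand, had 9.68 to 16.7 FPKM over all 12 samples and passed in no comparison.

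Between the double and the single mutant, the window differences of X ran from -0.65 to 0.57. The 3 named windows on each side are those with the largest differences among windows past the threshold whose samples did not overlap; 115 X windows had no overlap, 35.2% of those tested against 35.9% of all windows. Lowest was X:17350001-17400000, at -0.76, -0.0040, -0.24 and -0.47 in the double mutant and 0.36, 0.031, 0.34 and 0.39 in the single mutant, a difference of -0.65 (SE 0.13, limma adjusted p = 0.00206). The double-mutant samples were widely spread, and replicate 2 of each group came close to the other.

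vap-1 (X:17393939-17396556), a gene of the secreted venom-allergen-like family, led this window. It had 23.6, 45.2, 35.95 and 32.4 FPKM in the double mutant against 93.5, 63.2, 80.8 and 77.8 in the single mutant, a log2 difference of -1.18 (SE 0.27, limma adjusted p = 0.00383). F11C7.7 (X:17398593-17399357) next to it had 29.2, 45.7, 44.7 and 36.7 against 80.1, 63.7, 90.8 and 81.9 FPKM, and F10D7.10 (X:17378321-17379775) had a mean of 7.54 ± 1.14 against 17.8 ± 2.15 (SD, n = 4). In wild type these 3 genes had means of 47.9 ± 19.1, 78.9 ± 8.31 and 11.7 ± 1.05 FPKM.

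X:12350001-12400000 held nspc-12, nspc-13 and nspc-14, of a nematode-specific peptide family. Its values were -0.45, -0.20, -0.28 and -0.43 in the double mutant and 0.28, 0.11, 0.36 and 0.23 in the single mutant, and it was lower by -0.58 (SE 0.067, limma adjusted p = 6.40e-05). nspc-12 (X:12356194-12356681) had 107, 121, 116 and 105 FPKM in the double mutant and 262, 206, 312 and 255 in the single mutant, and the wild-type mean was 198 ± 15.6 (SD, n = 4). nspc-14 (X:12358614-12359057) had 90.6, 156, 156 and 143 against 297, 224, 359 and 287 FPKM. The copies of this tandem family can share fragments, so the split between them is uncertain. In X:12750001-12800000, lower by -0.54 (SE 0.088, adjusted p = 0.000576), the antibacterial factor genes abf-6 and abf-5 fell by 0.98 and 0.75 on the log2 scale while the aldehyde dehydrogenase gene alh-13 rose by 0.80. alh-13 (X:12782394-12787147) had 29.96, 34.98, 30.2 and 31.3 FPKM in the double mutant and 18.9, 18.7, 18.0 and 16.6 in the single mutant, so neighbouring genes of the window went opposite ways, each without overlap between the groups. abf-5, abf-6 and alh-13 each overlap a gene on the other strand, and with no limit on level the window differed by -0.058 (adjusted p = 0.164).

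On the positive side, X:3750001-3800000 was higher in the double mutant than in the single mutant by 0.57 (SE 0.13, limma adjusted p = 0.00435). Its gene abu-10 (X:3798182-3799741) belongs to a family of prion-like repeat proteins found in the pharynx. abu-10 had 16.9, 27.8, 22.7 and 23.7 FPKM in the double mutant against 9.14, 2.39, 2.14 and 6.23 in the single mutant, a log2 difference of 2.17 (SE 0.53, adjusted p = 0.00585). In wild type, replicate 1 had 10.2 FPKM and the other 3 had 1.33 to 1.52. idpp-5 (X:3789742-3792815) had 5.16, 7.69, 7.71 and 6.12 FPKM against 1.36, 0.967, 1.23 and 1.79. X:1300001-1350000 was higher by 0.55 (SE 0.10, adjusted p = 0.000987), with F21E9.2, which overlaps a gene on the other strand, at a mean of 13.4 ± 1.15 against 6.996 ± 1.63 FPKM and H42K12.3 at 32.9 ± 5.09 against 23.4 ± 5.99 (SD, n = 4).

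X:10850001-10900000 was higher by 0.53 (SE 0.068, limma adjusted p = 0.000138) and holds pgp-5, pgp-7 and pgp-8, which encode P-glycoprotein transporters of the ABC family. pgp-5 (X:10854216-10859297) had 58.2, 35.9, 47.0 and 54.4 FPKM in the double mutant, 8.82, 9.43, 8.67 and 8.67 in the single mutant, and a mean of 7.97 ± 2.40 in wild type (SD, n = 4). Its log2 difference of 2.33 (SE 0.18, adjusted p = 1.51e-06) from the single mutant was followed by those of its neighbours pgp-7, at 1.898 (SE 0.15, adjusted p = 1.83e-06), and pgp-8, at 1.26 (SE 0.12, adjusted p = 5.47e-06). Between the single mutant and wild type the window differed by 0.024 (adjusted p = 0.831). The pgp genes are similar in sequence, and fragments shared between them could not be told apart here.

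Windows in which every member passed the same way were rare. Between the double and the single mutant there were 3 of 327 (0.917%, against 0.535% of autosomal windows), all higher and each with 3 members. They held ZK899.2, the tubulin gene tba-8 and the Ras GTPase-activating gene gap-2 at X:9450001-9500000, nfki-1, C33A11.2 and svh-5 at X:15350001-15400000, and F52G3.1, F52G3.5 and the splicing regulator gene mbl-1 at X:16950001-17000000. Their log2 differences ran from 0.26 to 0.77. There were 0 such windows between the single mutant and wild type, against 0.268% of autosomal windows. Between the double mutant and wild type there were 2, both lower (0.612%, against 0.803% of autosomal windows). These windows were picked out after the values were seen.

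Between the single mutant and wild type, 74 X windows had no overlap between groups (22.6%, against 23.3% of all windows). The lowest was X:10750001-10800000, at 0.20, -0.069, -0.11 and -0.082 in the single mutant and 0.55, 0.47, 0.44 and 0.35 in wild type, a difference of -0.47 (SE 0.085, limma adjusted p = 0.00247). The 4 wild-type samples lay above all single-mutant samples. R07A4.4 (X:10751646-10757708) had 21.04, 25.6, 21.3 and 18.5 FPKM in the single mutant and 39.7, 37.6, 40.3 and 40.2 in wild type, and vap-2 (X:10789611-10792535), of the same family as vap-1, had a mean of 2.11 ± 0.354 against 3.23 ± 0.388 (SD, n = 4). The window fell further in the double mutant, to -0.79 (SE 0.085, adjusted p = 2.19e-05) from wild type, where vap-2 was lower by -1.03 (SE 0.15, adjusted p = 9.93e-05). Both genes overlap a gene on the other strand. With no limit on level, which adds weakly expressed genes to the window, the difference of the single mutant was -0.11 (adjusted p = 0.329).

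X:6150001-6200000 was lower in the single mutant than in wild type by -0.47 (SE 0.11, limma adjusted p = 0.0101), with T13C5.7 (X:6180593-6181431) at 8.46, 9.49, 6.83 and 6.98 FPKM against 16.1, 13.3, 15.02 and 13.3. X:1700001-1750000 was lower by -0.43 (SE 0.048, adjusted p = 0.000164), with the F-box gene fbxa-52 (X:1710149-1712638) at 2.91, 2.40, 1.98 and 2.37 FPKM against 5.26, 4.89, 4.28 and 4.60. That window was partly back in the double mutant, which was higher than the single mutant by 0.27 (adjusted p = 0.000987). With no limit on level its difference from wild type was -0.025 (adjusted p = 0.573). X:6150001-6200000 did not pass when the mean over genes was used (-0.48, adjusted p = 0.0662).

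The windows higher in the single mutant than in wild type were fewer. X:12700001-12750000 was higher by 0.54 (SE 0.095, limma adjusted p = 0.00216) and holds a second group of P-glycoprotein genes. pgp-12 (X:12731807-12737441) had 6.46, 5.75, 7.10 and 7.59 FPKM in the single mutant and 3.89, 3.43, 2.97 and 2.91 in wild type, and pgp-14 (X:12744723-12749580) had 34.0, 18.9, 25.1 and 27.98 against 20.5, 12.6, 11.5 and 8.71, with 1 wild-type sample among the single-mutant values. pgp-12 and pgp-14 each overlap another gene, on the other and on the same strand. pgp-12 was at 7.12 ± 0.556 FPKM in the double mutant against 6.72 ± 0.800 in the single mutant (SD, n = 4), and pgp-5 was at 48.9 ± 9.79 against 8.90 ± 0.363.

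X:3000001-3050000 was higher in the single mutant by 0.36 (SE 0.093, limma adjusted p = 0.0153) and in the double mutant by 0.68 (SE 0.093, adjusted p = 8.87e-05), both against wild type. The first of these did not pass without single-mutant replicate 1 (0.27, adjusted p = 0.0605) or with no limit on level (0.055, adjusted p = 0.449). Its C-type lectin gene clec-265 (X:3031783-3033117) had 28.9, 23.5, 26.8 and 28.8 FPKM in wild type, 52.7, 43.6, 41.7 and 61.0 in the single mutant, and 82.1, 101, 94.0 and 104 in the double mutant, without overlap between any of the genotypes. X:16450001-16500000 was higher in the single mutant by 0.31 (SE 0.055, adjusted p = 0.00216), with the carbonic anhydrase gene cah-3 at a mean of 118 ± 8.002 against 91.0 ± 8.01 FPKM (SD, n = 4), and it did not pass between the mutants (0.0081, adjusted p = 0.922).

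Between the double mutant and wild type, 145 X windows had no overlap (44.3%, against 45.3% of all windows). Besides X:10750001-10800000, the lowest were X:9550001-9600000 and X:1350001-1400000. In the first, gpx-5 (X:9584668-9586344), a glutathione peroxidase gene, had 163, 167, 155 and 146 FPKM in the double mutant and 269, 300, 249 and 250 in wild type, a log2 difference of -0.74 (SE 0.088, limma adjusted p = 2.36e-05). Its mean in the single mutant was 265 ± 32.1 (SD, n = 4). In the second, all 3 members passed as lower, the largest being F56C3.8 (X:1384318-1384638) at 48.5, 38.8, 42.1 and 47.4 FPKM against 75.2, 84.0, 82.4 and 84.5.

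The highest was X:6300001-6350000, at 0.31, 0.51, 0.36 and 0.27 in the double mutant and -0.30, -0.40, -0.48 and -0.47 in wild type, a difference of 0.78 (limma adjusted p = 4.03e-05). Of its 8 members 7 were higher, in a comparison where 52.5% of X members passed in either direction. It holds the cuticle collagen genes col-168 and col-169. col-169 (X:6329160-6330062) had 438, 541, 477 and 440 FPKM in the double mutant, a mean of 335 ± 85.7 in the single mutant (SD, n = 4), and 229, 215, 163 and 193 in wild type, a log2 difference of 1.26 (SE 0.16, adjusted p = 5.08e-05) from wild type. Cuticle collagens cycle with the molts in larvae, and the sum of the molting markers differed between the same groups as given above; its part in this window was not tested.

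At the earlier stages the double mutant alone could be described, by the level of X rather than by a difference between genotypes. Members there were X genes whose mean reached 1 FPKM in its own columns, 1848 in early embryos and 1992 at L1. The median X level minus the median autosomal level, on the log2(FPKM + 1) scale, was -0.97, -0.90 and -0.79 in the 3 early embryo samples. It was -0.215, -0.185, -0.177 and -0.217 at L1, and -0.369, -0.352, -0.349 and -0.368 at L3. The stages did not overlap, but their tables may have been normalized separately, so no test was made across them. Because members were chosen at each stage, these levels cover different genes, and the 1505 X genes that were members at all 3 stages were also taken alone. Over these the level was -1.39, -1.33 and -1.16 in early embryos, -0.224 to -0.188 at L1 and -0.322 to -0.303 at L3, in the same order of stages. At L3 the same measure was -0.30 ± 0.020 in wild type and -0.36 ± 0.043 in the single mutant (SD, n = 4).

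Few windows stood above the autosomes in early embryos. All replicates lay above the autosomal median in 52 of 308 windows (16.9%) in early embryos, 117 of 326 (35.9%) at L1 and 114 of 327 (34.9%) at L3. With only the genes that were members at every stage, the counts were 20 (7.33%), 108 (39.6%) and 96 (35.2%) of 273 windows, and the early embryo was the lowest of the 3 stages in 211 of these windows. The middle part was the highest of the 3 parts of X in early embryos, at -0.79 ± 0.077 against -0.90 ± 0.12 on the left and -0.94 ± 0.063 on the right (SD, n = 3), and at L1, at -0.089 ± 0.025 against -0.21 ± 0.0088 and -0.40 ± 0.017 (SD, n = 4). Among the genes shared by all stages the middle was also the highest in each sample, but at L1 the left (-0.327 to -0.314) then lay below the right (-0.255 to -0.167).

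**Figure D5:**
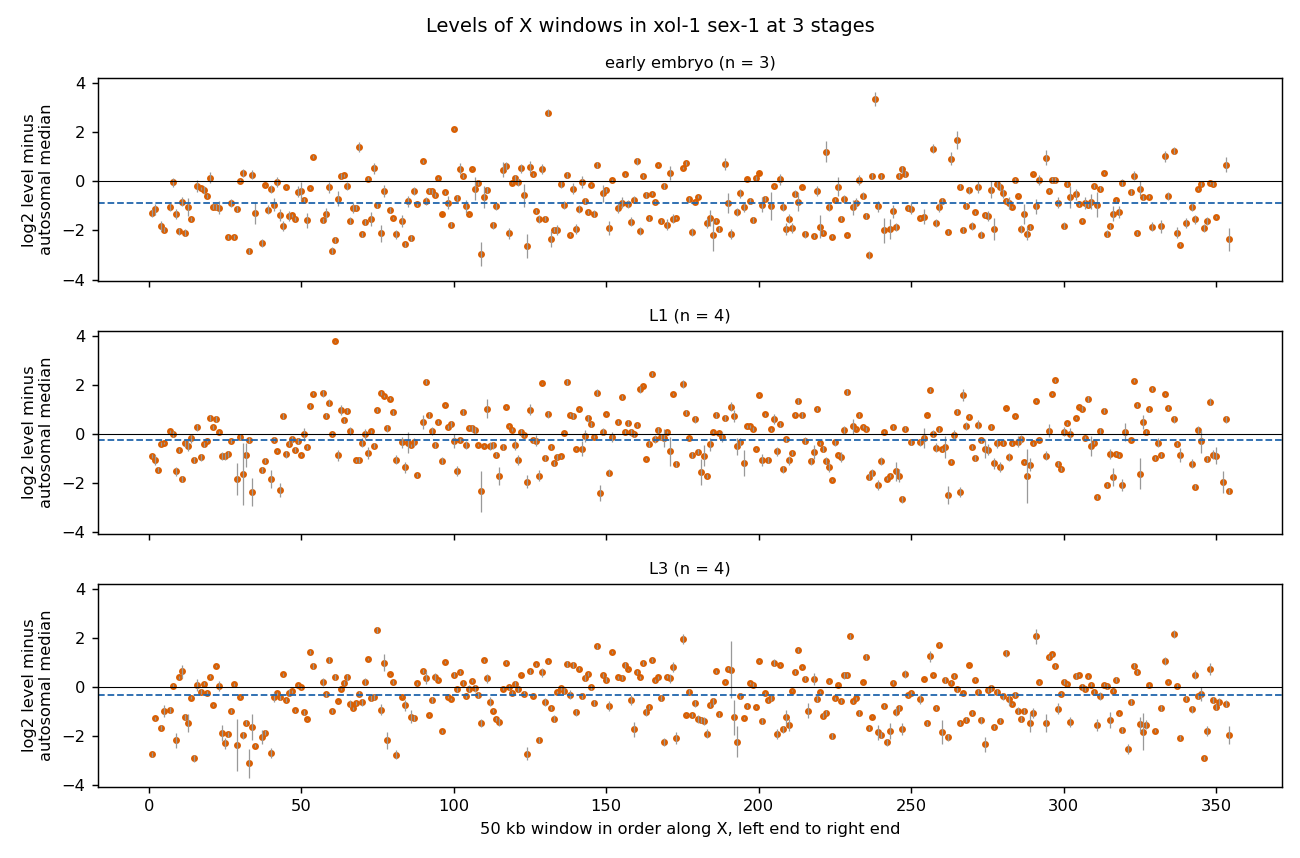
Level of each X window in the double mutant at the early embryo (n = 3), L1 (n = 4) and L3 (n = 4) stages, as the median of log2(FPKM + 1) minus the autosomal median (vertical axes), with windows in order along X (horizontal axis). Members were chosen at each stage. Points are means, grey bars 1 SD, and the dashed line is the median over windows. It lies at -0.89 in early embryos, -0.25 at L1 and -0.34 at L3.

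The windows at the top changed with stage, and these too were picked out by their values. In early embryos the highest was X:11850001-11900000 at 3.34 ± 0.28 above the autosomal median (SD, n = 3), with Y62H9A.5 at a mean of 1271 FPKM and ule-5 at 1204. At L1 it was X:3000001-3050000 at 3.77 ± 0.033, the window of clec-265, with the neuropeptide gene flp-18 at 306 FPKM and the aquaporin gene aqp-7 at 243. At L3 it was X:3700001-3750000 at 2.33 ± 0.12, with the neuropeptide gene nlp-1. nlp-1 had a mean of 4.30 ± 0.397 FPKM in early embryos, 134 ± 4.19 at L1 and 164 ± 14.1 at L3. The window did not hold the same members throughout, since the transcription factor gene fkh-2, at 10.1 FPKM in early embryos, had 0.614 at L3 and was no member there. Over the 3 genes that were members at all stages, nlp-1, tag-18 and aex-4, the window's level was -1.71 in early embryos, 2.20 at L1 and 1.84 at L3.

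The opposite course was seen at X:1950001-2000000, from -0.32 in early embryos to -1.82 at L1 and -2.69 at L3, and from -0.83 through -2.31 to -2.72 over the 4 genes that were members at all stages. It holds meg-3, a gene of the germ granules of the embryo, at 42.9 ± 2.64, 1.12 ± 0.273 and 1.83 ± 0.218 FPKM in the same order. In X:14650001-14700000 neighbouring genes took different courses, with hch-1, the hatching protease gene, at 36.7 ± 8.55 FPKM in embryos and 0.0859 ± 0.0606 at L3, while csq-1, which encodes the muscle calcium-binding protein calsequestrin, went from 110 ± 11.7 to 327 ± 18.0 FPKM. sex-1 itself was at 24.3 ± 2.43 FPKM in the early embryos of the double mutant, 4.81 ± 0.948 at L1 and 3.76 ± 0.408 at L3.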

How the data were processed

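Poly(A) RNA of 19 samples in 5 groups was measured by RNA-seq. The deposited values are FPKM per gene, in 3 tables, 1 per stage. Per the submitters' processing notes, the tools were cutadapt 2.3, FastQC 0.11.8, Salmon 1.9.0 and DESeq2 1.42.0, and the build was WBcel235. How replicates were normalized by the authors is not given in the sources used here. Another 13 columns, which belong to no sample of this series, were not used. Gene positions came from Ensembl release 115 (WBcel235), which matched all 21975 gene IDs.

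From the FPKM, log2(FPKM + 1) was computed for genes with a mean of 1 or more. Windows and genes were tested with limma 3.58.1 (R 4.3.3) on the 12 L3 samples with no covariate; the genes' fit used an intensity trend, and both were robust. The limma scripts were tested on simulated data. A fold change on this scale understates the change of low genes. The 3 equal parts of X were compared by exact permutation, with p-values adjusted over 3 tests. FPKM gives no counts, so depth is known only relative to other columns, and no counting interval is given.

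The members, gene lists and tests were chosen with earlier results of these data known. Windows named for a comparison are the 3 with the largest positive and the 3 with the largest negative difference among those past the threshold with no overlap between groups, plus those of sex-1 and xol-1. In each, up to 3 passing genes of largest difference were named, and all listed genes on X. The runs, the windows in which all members passed one way, the expression tiers, the genes lbp-1, lbp-2, lbp-3, cht-1, hog-1 and hbl-1, the windows named by stage the removal of overlapping genes and the stage levels over genes that were members at every stage were chosen after values were seen.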

Additional observations from a re-analysis of the deposited data

Results flagged for a closer look

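Within groups of 4 samples, 244 sets of values were checked for a single sample far from the other 3, and 11 had one; chance gives about 1 in 20. In the value of the middle part minus the ends, single-mutant replicate 3 was at 0.085 against -1.1e-05 to 0.014 in the others. In the window X:10750001-10800000, single-mutant replicate 1 was at 0.20 against -0.11 to -0.069. In X:12700001-12750000, the window of pgp-12, double-mutant replicate 1 was at 0.029 against 0.32 to 0.34. In X:17350001-17400000, the window of vap-1, single-mutant replicate 2 was at 0.031 against 0.34 to 0.39.

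Among genes at L3, nspc-13 had 7.99 FPKM in wild-type replicate 3 against 5.32 to 5.63 in the others. In wild-type replicate 1, abu-10 had 10.2 FPKM against 1.33 to 1.52, and marg-1 had 9.43 against 4.70 to 5.39. F45E1.1 had 35.99 FPKM in double-mutant replicate 1 against 29.2 to 29.8. F38E9.1 had 6.42 FPKM in single-mutant replicate 2 against 5.34 to 5.42, and 6.06 in double-mutant replicate 1 against 5.45 to 5.48. The level of the left part relative to the autosomes at L3 was -0.44 in double-mutant replicate 1 against -0.37 in the other 3.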

How the results depend on the processing

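In the order double minus single mutant, single mutant minus wild type and double mutant minus wild type, windows of 100 kb gave 68, 43 and 75 windows past the threshold, of 176 tested, so fewer were there to pass. Leaving out 1 replicate at a time gave 109 to 137, 56 to 91 and 123 to 164 windows and 850 to 992, 510 to 708 and 941 to 1124 genes. The middle minus the ends ranged from -0.0667 to -0.0354, from -0.00530 to 0.0278 and from -0.0487 to -0.0354; with 1 sample left out no call was possible, since 3 samples against 4 allow no exact permutation p under 0.0571. Both calls were lost with a mean of at least 5 FPKM (-0.0468 and -0.0284, exact permutation adjusted p = 0.0857) and without overlapping genes, an alternative chosen after seeing the data (-0.0426 and -0.0269, adjusted p = 0.0857); the cause was not tested. Single mutant minus wild type turned sign with no limit on level (-0.00851) and without single-mutant replicate 3 (-0.00530), and passed in neither. Replicate numbers are shared between genotypes, but the labels do not say that they pair samples. Same-numbered deviations correlated between -0.179 and 0.244. The same number gave the highest value for replicate 1 of the single mutant with wild type (0.244, against at most 0.0268). It also did so for replicate 3 of the double with the single mutant (0.153, against at most 0.0315). In all other cases another number gave a higher value. With the replicate number as a block, 130, 80 and 147 windows passed, and the middle minus the ends, -0.0591 and -0.0402, could reach no p under 0.125 by exact sign flips (adjusted p = 0.188). Of 481 values of named windows under the alternatives, 475 kept direction and call and 6 lost the call; of 2025 values of named genes, 1873 kept both and 152 lost the call, and none of either turned sign. Low levels limit precision, and the counts behind them are unknown.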
